A study of Mus musculus with 31 samples.

Results

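The genes described here encode the vacuolar proton pump (V-ATPase) with its accessory proteins, and the cathepsins, the proteases that work in the compartments the pump acidifies. They were chosen by symbol from the table of FPKM values (fragments scaled to transcript length and to the mapped total of the library), as all symbols that begin with Atp6v0 or Atp6v1, Atp6ap1 and Atp6ap2, and Cts followed by 1 letter. Of 24302 listed symbols 43 matched, 25 of the pump and 18 cathepsins. Of the 43, 29 reached 1 FPKM in at least 3 libraries and were tested, 18 of the pump (1 of them a pseudogene) and 11 cathepsins, among 10327 genes that passed the same filter.

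RNA was sequenced from peritoneal macrophages of C57BL/6 mice aged 8.5 weeks, drawn into the abdominal cavity by 3% thioglycollate, an irritant, and collected 4 days later. The mice were controls or carried a macrophage knockout of PPARγ (KO below, labelled PPARgammaMPKO), 4 of each genotype. After a night in culture they received no treatment, or 24 h of DMSO (the vehicle), of 1 uM rosiglitazone (a synthetic PPARγ ligand) or of 20 ng/mL IL4 (a cytokine of alternative macrophage activation). The 8 groups, each genotype in each condition, have 4 libraries, except KO cells with rosiglitazone, which have 3. The sources used here do not give the Cre driver or the deleted exons. They give 24 h for treated cells and no time for untreated cells. Comparisons with untreated cells may thus include a difference in culture time, which cannot be told apart from treatment. Nothing says which libraries came from the same mouse, so the p-values measure the spread between these libraries, which may be partly technical.

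V-ATPase couples the hydrolysis of ATP in its peripheral V1 sector to the turning of a ring of subunits in its membrane sector, V0, and so moves protons into lysosomes, endosomes and phagosomes. Several subunits come in isoforms, and the a and d isoforms differ between tissues and organelles. Cathepsins are made as inactive precursors, are activated at acid pH, and in macrophages degrade phagocytosed protein, cut the invariant chain of MHC class II and can act outside the cell.

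Each library was divided by its median ratio to the geometric mean over genes, and levels are given as rescaled FPKM. Differences are on the log2(rescaled FPKM + 1) scale, from a limma fit to all 31 libraries, with the standard error (SE) and a Benjamini-Hochberg (BH) adjusted p over the 10327 genes. A gene is said to rise or fall when its adjusted p is under 0.05. The FPKM sums were 150719, 166172 and 151837 in KO untreated libraries 2 and 3 and control IL4 library 2, and 221837 to 305601 in the other 28, and 8601 to 9900 genes reached 1 FPKM per library. All 8 macrophage markers listed, such as Csf1r, Adgre1 and Cd68, were above 1 FPKM in all libraries, with a summed level of 1060 to 1340 rescaled FPKM in control and 983 to 1400 in KO libraries. Cd68, with a median of 797, was the largest part of this sum. In each of the 4 conditions 1 of the 8 was called higher and 2 lower in KO than in control cells. Of all genes, 4.15% were called untreated, 3.52% with DMSO, 11.8% with rosiglitazone and 10.8% with IL4. Of the listed markers of dendritic cells, mast cells, lymphocytes and NK cells 0 passed the filter, and of the defining granulocyte genes Epx was at 0 in all libraries and S100a9 in 29 of 31. Of 5 eosinophil markers 1 passed, Siglecf, at 3.27 to 11.8 rescaled FPKM. Siglecf was called higher in KO than in control cells with IL4, by 0.56 on the log2 scale. It also rose with IL4 against untreated KO cells, by 0.54. Of 8 neutrophil markers 7 were in the table and S100a8 passed, and the 7 summed to 11.5 to 29.6 rescaled FPKM in control and 4.26 to 14.6 in KO libraries. Nearly all of this sum was S100a8, at 4.23 to 29.6, and none of the others was above 0.251. Of 10 mesothelial and fibroblast markers 9 passed, with a sum of 2.46 to 42.3 in control and 20.7 to 141 in KO libraries. Pparg itself had 49.8 ± 2.93 rescaled FPKM in untreated control and 44.8 ± 6.65 in untreated KO libraries (SD, n = 4), and its log2 difference was -0.16 ± 0.10 (SE; limma, BH adjusted p = 0.442). With DMSO, rosiglitazone and IL4 the difference of Pparg was -0.01, 0.34 and 0.26 (limma, BH adjusted p of 0.99, 0.0302 and 0.0838). These values cover the whole gene, including exons outside any deletion, and so do not check the labels. In bulk RNA, fewer cells of a type and less RNA per cell cannot be told apart.

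These macrophages listed both gene sets at high levels. The 11 cathepsins made up 5.79% to 7.43% of all listed FPKM in a library, and the 18 pump genes 1.07% to 1.37%. By the mean over all libraries the most abundant were the aspartic protease Ctsd, with a mean of 5747 rescaled FPKM over the 31 libraries, and the cysteine proteases Ctss (5171), Ctsl (1972), Ctsb (1902) and Ctsz (1037). The order differed between groups: with IL4 in KO cells Ctss was above Ctsd in all 4 libraries, with means of 5990 and 4205. Among the pump genes Atp6v0d2, the d isoform known from osteoclasts and macrophages, had the highest mean, 505 rescaled FPKM. The catalytic subunit gene Atp6v1a had a mean of 288 rescaled FPKM and the nucleotide-binding subunit gene Atp6v1b2 one of 281. The lowest tested members were Ctsf, at 1.46, and Atp6v0a2, at 6.76.

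The 14 symbols below the filter were mostly isoforms and cathepsins of other tissues. They were 7 pump genes (Atp6v0a4, Atp6v0e2, Atp6v1b1, Atp6v1c2, Atp6v1e2, Atp6v1g2 and Atp6v1g3) and 7 cathepsins (Ctse, Ctsg, Ctsj, Ctsm, Ctsq, Ctsr and Ctsw). Of these, 8 were listed at 0 in all 31 libraries, among them Atp6v1b1, the B isoform of kidney and inner ear, and Ctsw, a cathepsin of cytotoxic lymphocytes. Ctsf lay just inside the filter, with at least 1 FPKM in 25 libraries and a range of 0.386 to 3.44. Ctse, the other aspartic cathepsin, and Atp6v1g2, the G isoform of neurons, lay just outside, with highest values of 0.751 and 0.704 FPKM.

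Among the V0 genes, Atp6v0a1, which encodes the a1 isoform of the subunit that carries protons across the membrane, was lower in KO than in control cells in all 4 conditions. In untreated cells its level was 70.8, 78.4, 104 and 73.8 rescaled FPKM in control libraries 1 to 4, and 23.7, 35.3, 42.4 and 25.8 in KO libraries 1 to 4. With DMSO it was 61.6, 66.1, 92.1 and 63.4 in control and 24.0, 26.5, 36.2 and 23.3 in KO libraries. All KO libraries lay below all control libraries in both conditions. With rosiglitazone the level was 117, 116, 140 and 95.2 rescaled FPKM in control libraries and 36.4, 42.3 and 21.3 in the 3 KO libraries. With IL4 it was 161, 188, 205 and 152 in control and 50.2, 66.1, 91.6 and 53.7 in KO libraries. Again the genotypes did not overlap, and control library 3 was the highest control library in all 4 conditions.

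The log2 difference of Atp6v0a1 between KO and control cells was -1.36 ± 0.21 untreated (SE; limma, BH adjusted p = 9.64e-05). It was -1.34 ± 0.21 with DMSO (limma, BH adjusted p = 0.000123) and -1.45 ± 0.21 with IL4 (limma, BH adjusted p = 1.28e-05). With rosiglitazone it was -1.82 ± 0.23 (limma, BH adjusted p = 9.61e-07). These 4 calls held in 41 of 41 other settings, and with each of the 31 libraries left out in turn the differences ranged from -2.02 to -1.21.

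IL4 raised Atp6v0a1 in both genotypes. The log2 difference between IL4 and untreated cells was 1.11 ± 0.21 in control cells (SE; limma, BH adjusted p = 0.000265) and 1.02 ± 0.21 in KO cells (limma, BH adjusted p = 0.000753). IL4 and untreated libraries did not overlap in either genotype. The difference between these responses, KO minus control, was -0.09 on the log2 scale with a 95% interval of -0.70 to 0.52 (limma, BH adjusted p = 1). Rosiglitazone raised it in control cells, by 0.72 ± 0.21 against DMSO on the log2 scale (limma, BH adjusted p = 0.0465), with no overlap of the libraries. In KO cells the same difference was 0.24 ± 0.23 (limma, BH adjusted p = 1), and the responses differed by -0.49 with a 95% interval of -1.12 to 0.15 (limma, BH adjusted p = 1). The rosiglitazone call is at the edge of the threshold: it was lost with 18 of the 31 libraries left out in turn, at adjusted p up to 0.135, while the difference stayed between 0.63 and 0.86.

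Ordered by group mean, Atp6v0a1 ran from 27.5 ± 5.97 (SD, n = 4) in KO DMSO cells through 31.8 ± 8.72 (n = 4) in KO untreated and 33.4 ± 10.8 (n = 3) in KO rosiglitazone to 65.4 ± 18.8 (n = 4) in KO IL4 cells. Control cells followed with 70.8 ± 14.3 with DMSO, 81.8 ± 15.2 untreated, 117 ± 18.4 with rosiglitazone and 176 ± 24.2 with IL4 (SD, n = 4 each). The first 3 groups overlapped one another. KO cells with IL4, at 50.2 to 91.6 rescaled FPKM, overlapped both the control DMSO libraries, at 61.6 to 92.1, and the control untreated libraries, at 70.8 to 104. Control rosiglitazone libraries, from 95.2, overlapped the control untreated libraries, and control IL4 libraries, from 152, lay above all others. The highest group mean was 6.42 times the lowest, against 1.10 to 2.73 times for the 26 other members apart from the Atp6v0c pair.

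**Figure D1:**
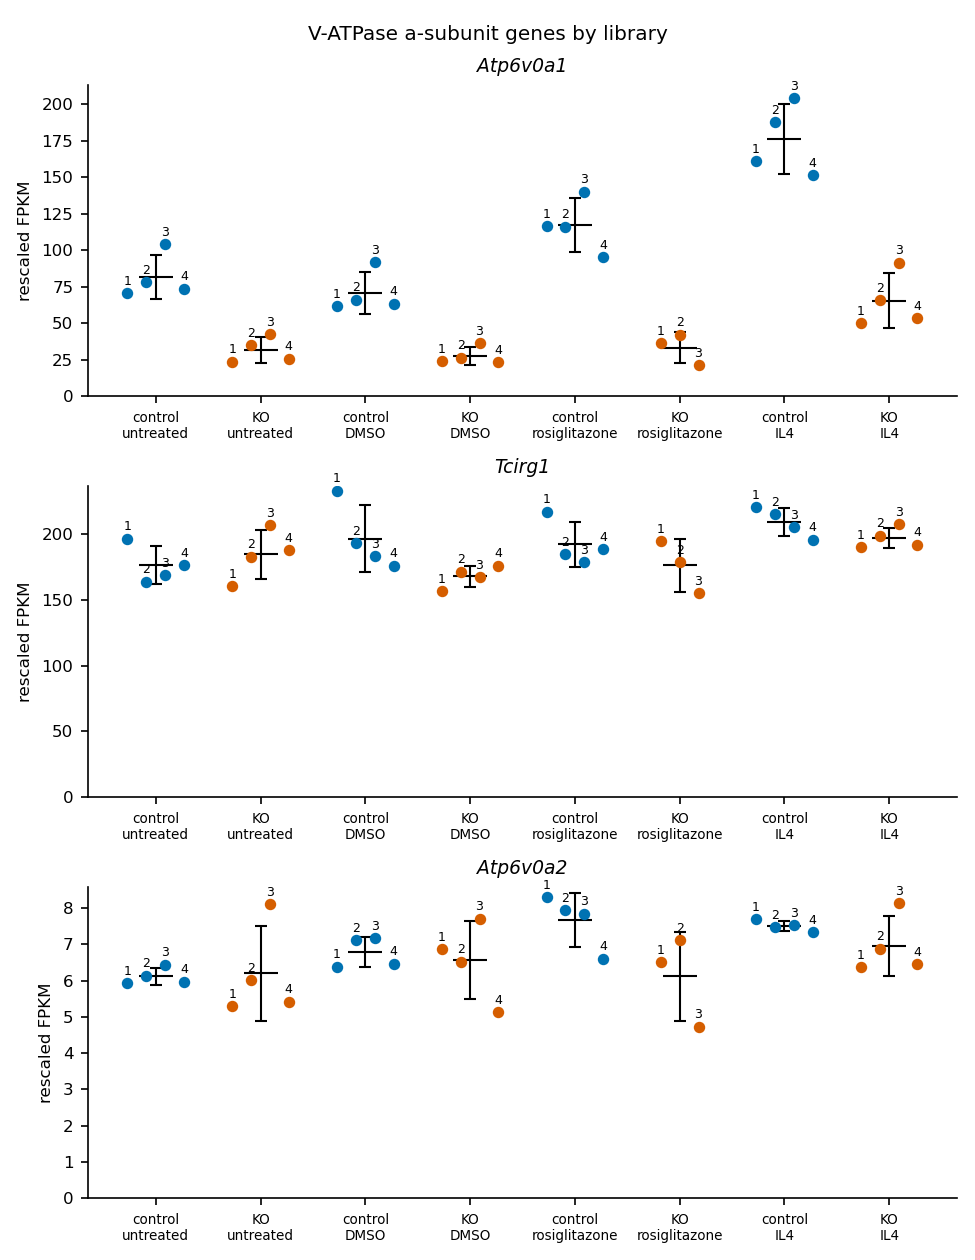
Rescaled FPKM of the 3 a-subunit genes (y axis) in the 8 groups (x axis); points are libraries with their numbers, blue for control and orange for KO, and black bars are the mean ± SD. All KO points of Atp6v0a1 lie below the control points of the same condition. Tcirg1 and Atp6v0a2 differ less between the genotypes and passed the test between them in no condition.

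The other a-isoform genes did not pass the test between genotypes. Tcirg1, which lies outside the symbol rule and encodes the a3 isoform of lysosomes and osteoclasts, had 176 ± 14.4 rescaled FPKM in untreated control and 184 ± 18.9 in untreated KO cells (SD, n = 4). Its log2 differences between KO and control cells ran from -0.22 ± 0.09 with DMSO to 0.06 ± 0.09 untreated (limma, BH adjusted p of 0.245 and 0.833). Atp6v0a2, the a2 isoform of the Golgi and endosomes, had 6.12 ± 0.23 and 6.21 ± 1.31 rescaled FPKM in untreated control and KO cells (SD, n = 4). Of the summed a-isoform FPKM, Atp6v0a1 made up 30.9% ± 4.83 in untreated control and 14.1% ± 2.34 in untreated KO cells (SD, n = 4), and 44.8% ± 3.38 and 24.0% ± 4.27 with IL4 (SD, n = 4). In each of the 4 conditions the KO libraries lay below the control libraries in this share.

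The d isoforms, which link the V0 ring to the central stalk, were dominated by Atp6v0d2, at 74.7% to 86.7% of their summed FPKM in each library. Atp6v0d2 had 545, 652, 519 and 574 rescaled FPKM in untreated control libraries 1 to 4 and 429, 442, 248.7 and 504 in untreated KO libraries. The KO libraries lay below the control libraries, and library 3 was the lowest in each genotype. The log2 difference was -0.54 ± 0.18 (SE; limma, BH adjusted p = 0.0935), and in the other conditions it lay between -0.34 with DMSO and -0.43 with IL4, with adjusted p of 0.14 to 0.411. None of these 4 differences passed the test. Atp6v0d1, the widely expressed d isoform, Atp6v0b, which encodes a proteolipid of the ring, and Atp6v0e, a small membrane subunit, passed in no comparison, and their group means spanned 1.16, 1.10 and 1.31 times.

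The main proteolipid gene, Atp6v0c, cannot be read from its own values. In control DMSO library 3 it was listed at 0.000841 FPKM, while the other 30 libraries had at least 1 FPKM. After rescaling, its level in untreated cells was 137, 80.6, 6.54 and 186 in control libraries 1 to 4 and 57.7, 244, 203 and 32.1 in KO libraries. The pseudogene Atp6v0c-ps2 had 144, 183, 210 and 83.0 in the same control libraries and 228, 62.3, 22.6 and 296 in the same KO libraries. In each untreated group the 2 libraries with the most Atp6v0c had the least Atp6v0c-ps2. This did not hold in every group: of the KO DMSO libraries, library 4 was the highest for both, at 23.2 and 323 rescaled FPKM. In control IL4 library 2 Atp6v0c had 297 rescaled FPKM and Atp6v0c-ps2 0.0266. The sum of both was steadier, at 184 to 362 rescaled FPKM over the 31 libraries, while the share listed under Atp6v0c ran from near 0 in control DMSO library 3 to 100% in control IL4 library 2. Its mean in control and KO cells was 37.8% and 49.9% untreated, and 35.2% and 44.9% with IL4. With DMSO it was 4.30% and 3.49%, and with rosiglitazone 13.3% and 3.65%. The share thus also varied with treatment, with wide scatter within groups, and the cause was not tested. Over the whole set no passing member had an exact 0 in any library.

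In GENCODE transcripts (release M21, build GRCm38) the 465 bases of Atp6v0c-ps2, on chromosome 6, align without gaps to the Atp6v0c transcript, on chromosome 17, from its start codon. Of these 465 bases 464 are identical (99.8%), and the longest identical run is 354 bases. The 1 difference is T111C, the base of Atp6v0c first, with positions counted from 1 at the first base of the start codon. The 60 bases around it are shown because a read that misses that position matches both copies over this stretch, and the capital marks the difference.
Atp6v0c: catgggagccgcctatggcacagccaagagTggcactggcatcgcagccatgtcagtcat
Atp6v0c-ps2: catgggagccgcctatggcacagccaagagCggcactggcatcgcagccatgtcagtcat
The sources used here do not say how reads that match both copies were assigned, so the level of each gene is uncertain. Summed before the log2 step, the pair passed in none of the 12 comparisons. Its log2 difference between KO and control cells was 0.15 ± 0.16 untreated (SE; limma, BH adjusted p = 0.735) and 0.12 in the other 3 conditions (limma, BH adjusted p of 0.771 to 0.823). Apart from each other, the copies did not pass in any comparison.

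**Figure D2:**
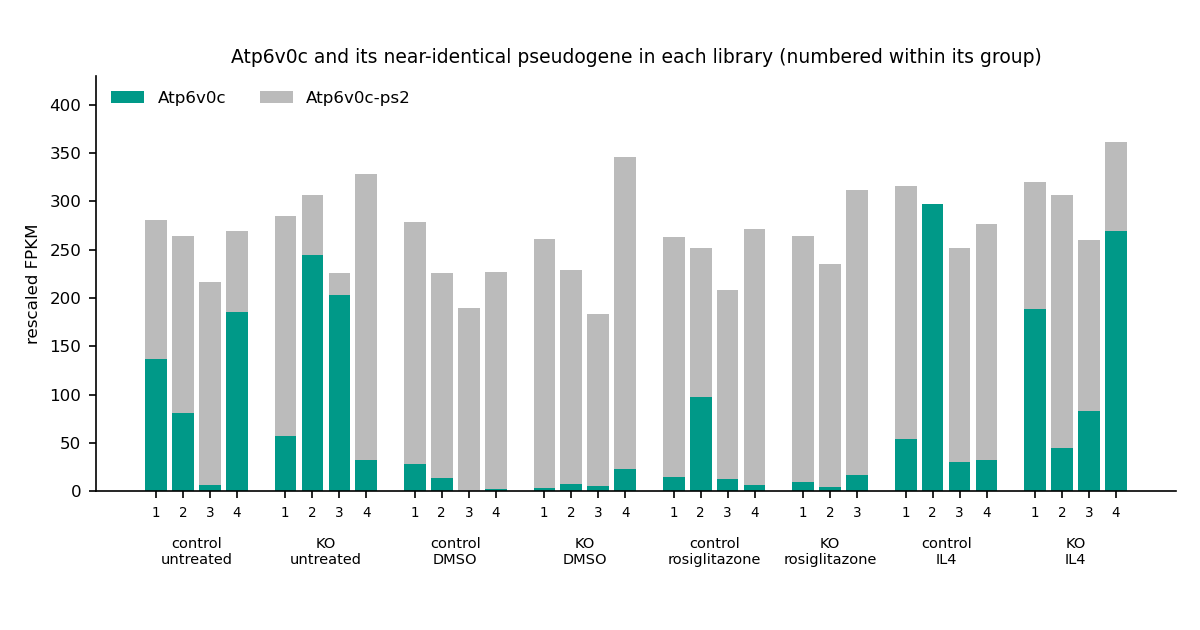
Rescaled FPKM (y axis) listed under Atp6v0c (green) and stacked on it under the pseudogene Atp6v0c-ps2 (grey), 1 bar per library, numbered within its group. The total bar stays between 184 and 362 while the green part goes from near 0 in control DMSO library 3 to the whole bar in control IL4 library 2.

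Among the 8 V1 genes, Atp6v1b2, which encodes the B2 subunit that binds nucleotide beside the catalytic subunit, followed Atp6v0a1 in direction with smaller differences. With IL4 it had 371, 354, 373 and 393 rescaled FPKM in control libraries 1 to 4 and 289, 268, 258 and 302 in KO libraries, with no overlap. Its log2 difference between KO and control cells was -0.42 ± 0.09 with IL4 (SE; limma, BH adjusted p = 0.00115). With rosiglitazone it was -0.28 ± 0.09 (limma, BH adjusted p = 0.0493), a call that was lost with 23 of the 31 libraries left out in turn, at adjusted p up to 0.202. The differences were -0.23 ± 0.09 untreated and -0.08 ± 0.09 with DMSO (limma, BH adjusted p of 0.146 and 0.792). IL4 raised Atp6v1b2 in control cells by 0.39 ± 0.09 on the log2 scale (limma, BH adjusted p = 0.00122), from 284 ± 19.7 to 373 ± 15.9 rescaled FPKM (SD, n = 4). In KO cells the difference was 0.20 ± 0.09 (limma, BH adjusted p = 0.106), and the responses differed by -0.19 ± 0.12 (limma, BH adjusted p = 1). On the values as deposited, Atp6v1b2 had differences of -0.26 between KO and control cells with IL4 and 0.26 for IL4 in control cells (limma, BH adjusted p of 0.774 and 0.618).

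Atp6v1a, the catalytic subunit gene, was higher in KO cells with IL4. It had 255, 255, 263 and 278 rescaled FPKM in control IL4 libraries 1 to 4 and 316, 286, 306 and 338 in KO IL4 libraries, with no overlap. The log2 difference was 0.24 ± 0.07 (SE; limma, BH adjusted p = 0.0178); without control IL4 library 1 or 2 or KO IL4 library 1 or 4 it was 0.20 to 0.24, with adjusted p of 0.0509 to 0.0779. On the values as deposited it was 0.40 (limma, BH adjusted p = 0.427). With rosiglitazone the difference was 0.21 ± 0.07 (limma, BH adjusted p = 0.0688). Atp6v1c1, whose product holds V1 and V0 together, fell with IL4 in control cells, from 236 ± 19.9 to 178 ± 7.54 rescaled FPKM (SD, n = 4), a log2 difference of -0.40 ± 0.12 (limma, BH adjusted p = 0.0178). Without control untreated library 2 it was -0.35 (limma, BH adjusted p = 0.0679), and on the values as deposited -0.53 (limma, BH adjusted p = 0.201). In KO cells, after rescaling, the difference of Atp6v1c1 was -0.30 ± 0.12 (limma, BH adjusted p = 0.088). The genes of the stalk and regulatory subunits, Atp6v1d, Atp6v1e1, Atp6v1f, Atp6v1g1 and Atp6v1h, passed in no comparison, and neither did the accessory genes Atp6ap1, which takes part in assembly, and Atp6ap2, the prorenin receptor.

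**Figure D3:**
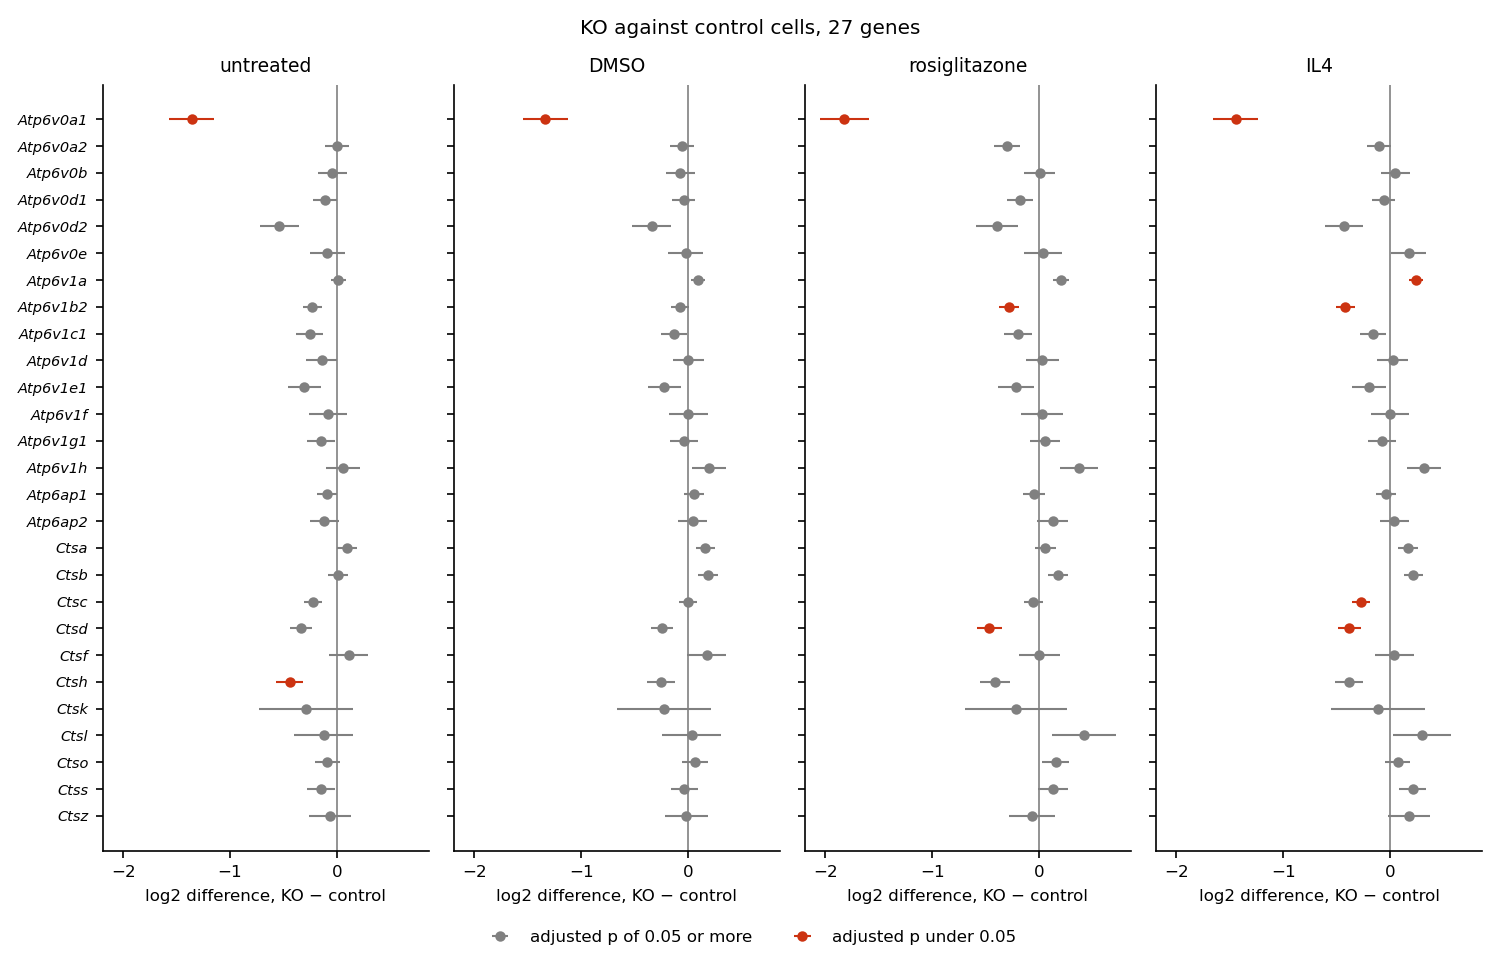
Log2 difference between KO and control cells (x axis, points) with its SE (bars) for the 27 tested genes other than the Atp6v0c pair (y axis), in untreated, DMSO, rosiglitazone and IL4 cells; red marks an adjusted p under 0.05. Atp6v0a1 stands apart on the left in all 4 panels, and Ctsd is red with rosiglitazone and IL4.

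Ctsd, the aspartic cathepsin, was lower in KO cells with rosiglitazone and with IL4. With rosiglitazone its level was 7631, 7587, 7062 and 7787 rescaled FPKM in control libraries 1 to 4 and 5259, 5193 and 5901 in KO libraries 1 to 3. With IL4 it was 5818, 5175, 5259 and 5610 in control and 3977, 4316, 3850 and 4678 in KO libraries. The genotypes did not overlap in either condition. The log2 difference was -0.47 ± 0.12 with rosiglitazone (SE; limma, BH adjusted p = 0.00622) and -0.38 ± 0.11 with IL4 (limma, BH adjusted p = 0.0178). Untreated it was -0.33 ± 0.11 (limma, BH adjusted p = 0.0751), again without overlap, and with DMSO -0.24 ± 0.11 (limma, BH adjusted p = 0.275). The IL4 call was lost without control IL4 library 1 or without KO IL4 library 1 or 3, at adjusted p of 0.0567 to 0.0598 and a difference of -0.36 to -0.34. Neither call passed without the filter on low values (adjusted p of 0.57 and 0.655) or with only the groups compared in the fit (0.15 and 0.0776), with the same differences, nor on the values as deposited (-0.45 and -0.22; 0.511 and 0.822).

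Against untreated cells, Ctsd fell with IL4 in KO cells by 0.32 ± 0.11 on the log2 scale (limma, BH adjusted p = 0.0359), with overlap, and its difference was -0.27 ± 0.11 in control cells (limma, BH adjusted p = 0.0702). The call in KO cells was lost with 6 of the 31 libraries left out in turn, namely KO untreated library 1, 2 or 4 and KO IL4 library 1, 2 or 3, with differences of -0.33 to -0.28 and adjusted p of 0.0586 to 0.11. On the values as deposited the difference was -0.06 (limma, BH adjusted p = 0.867), and the call was also lost without the filter on low values (0.657) and with only the groups compared (0.314). Rosiglitazone against DMSO gave 0.28 ± 0.11 in control cells, where the libraries did not overlap (limma, BH adjusted p = 0.168), and 0.06 ± 0.12 in KO cells (limma, BH adjusted p = 1). Ctsd made up 45.0% ± 1.30 of the summed cathepsin FPKM in control rosiglitazone cells (SD, n = 4) and 24.2% ± 1.89 in KO IL4 cells (n = 4), the highest and lowest of the 8 group means.

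**Figure D4:**
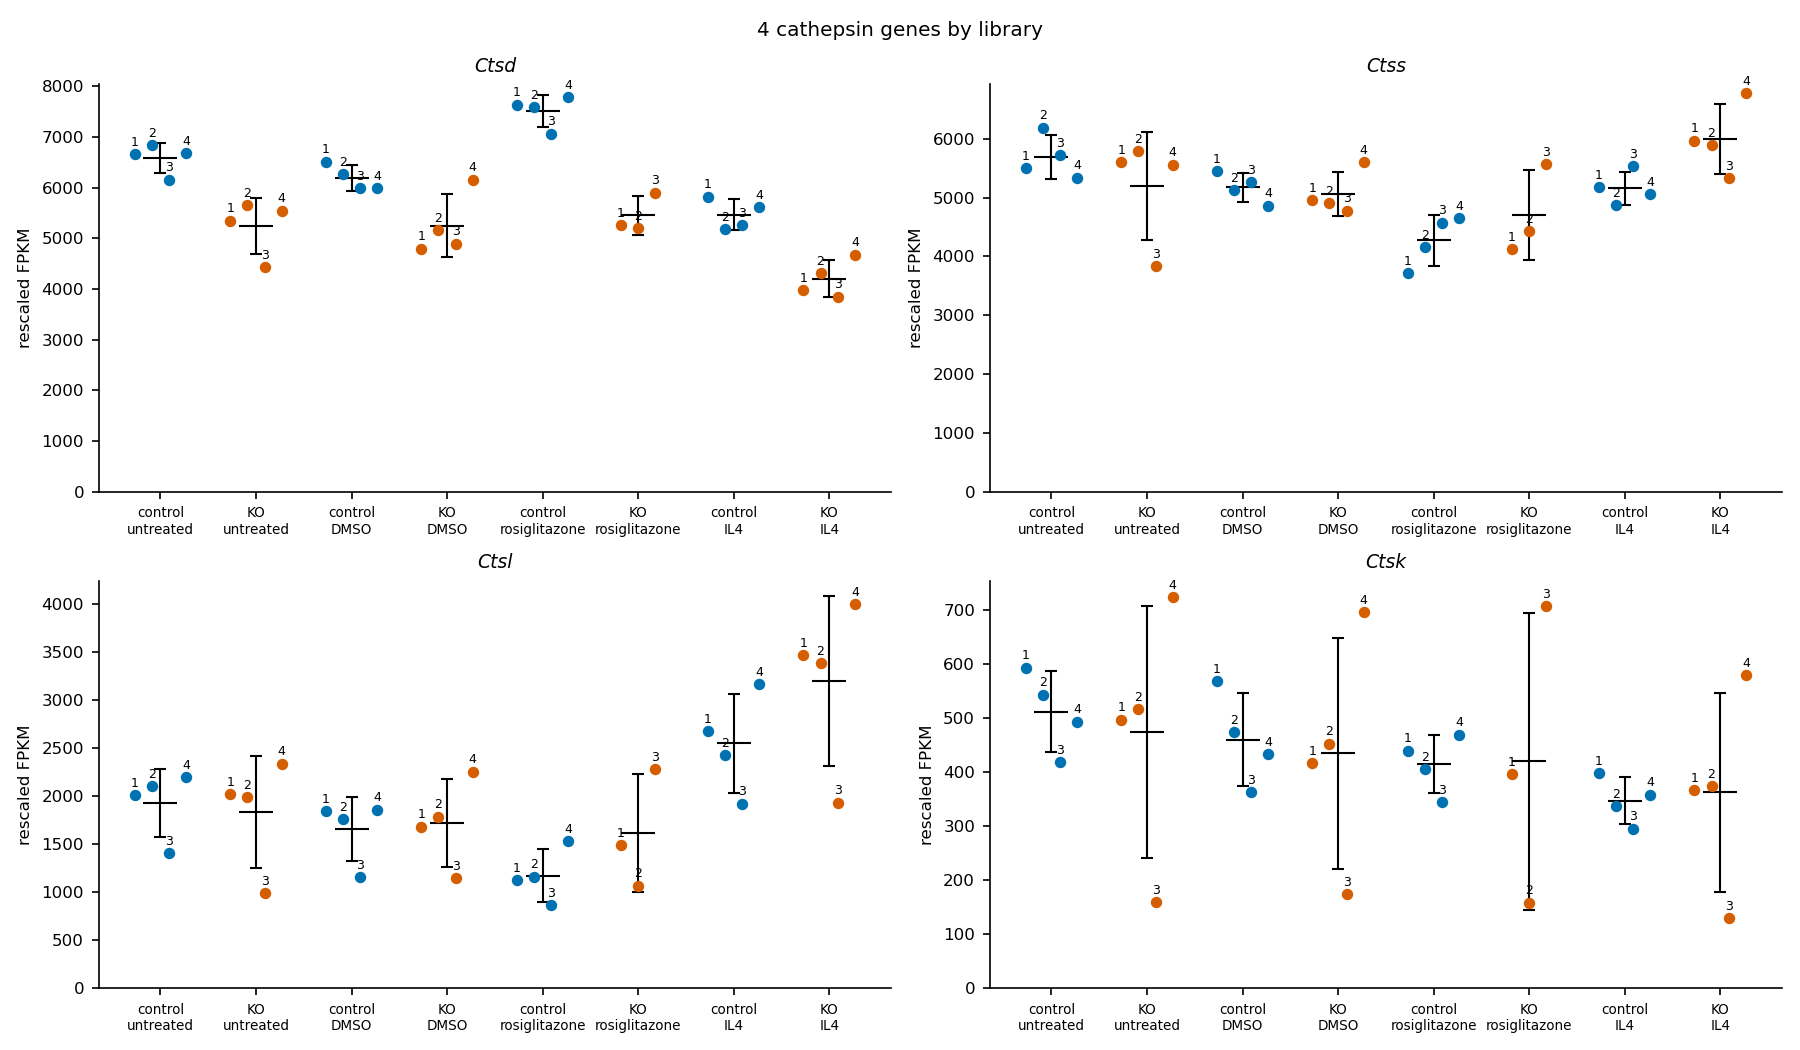
Rescaled FPKM (y axis) of Ctsd, Ctss, Ctsl and Ctsk in the 8 groups (x axis); points are libraries with their numbers, blue for control and orange for KO, and black bars are the mean ± SD. Ctsd is lower in KO than in control cells with rosiglitazone and IL4, and Ctsl and Ctsk spread widely within the KO groups, from 129 to 724 for Ctsk.

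Among the cysteine cathepsins, Ctsh, an aminopeptidase, was lower in untreated KO cells. It had 175, 199, 176 and 186 rescaled FPKM in control libraries 1 to 4 and 147, 148, 97.5 and 155 in KO libraries, with KO library 3 far below the others. The log2 difference was -0.44 ± 0.13 (SE; limma, BH adjusted p = 0.0474). Without KO untreated library 3 it was -0.29 (limma, BH adjusted p = 0.208), and the call was lost with 23 of the 31 libraries left out in turn. On the values as deposited it was -0.67 (limma, BH adjusted p = 0.217). With rosiglitazone and IL4 the differences were -0.41 ± 0.14 and -0.39 ± 0.13 (limma, BH adjusted p of 0.054 and 0.0534), just short of the threshold.

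Ctsc, the dipeptidyl peptidase that activates granule serine proteases, rose with IL4 in both genotypes. In control cells it had 51.7, 50.9, 50.5 and 42.0 rescaled FPKM in untreated libraries 1 to 4 and 60.9, 53.9, 66.3 and 61.8 in IL4 libraries. In KO cells it had 46.4, 43.4, 36.2 and 40.9 untreated and 52.3, 48.8, 50.3 and 48.7 with IL4. Untreated and IL4 libraries did not overlap in either genotype. The log2 differences were 0.31 ± 0.08 in control cells (SE; limma, BH adjusted p = 0.00682) and 0.26 ± 0.08 in KO cells (limma, BH adjusted p = 0.0263). The call in KO cells was lost without KO untreated library 3 or 4 or KO IL4 library 1, at adjusted p of 0.0553 to 0.106. Between KO and control cells with IL4 the difference was -0.27 ± 0.08 (limma, BH adjusted p = 0.0328), without overlap. It was lost with 6 libraries left out in turn, control IL4 library 1, 3 or 4 and KO IL4 library 2, 3 or 4, at adjusted p of 0.0521 to 0.143. On the values as deposited the 3 differences of Ctsc were 0.18, 0.51 and -0.12, with adjusted p of 0.732, 0.123 and 0.896.

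Ctsl, an endopeptidase that also cuts the invariant chain in some cells, rose with IL4 in KO cells, with wide scatter. It had 2025, 1992, 992 and 2340 rescaled FPKM in untreated KO libraries 1 to 4 and 3473, 3385, 1934 and 4000 in KO IL4 libraries. Library 3 was the lowest in both groups, and KO IL4 library 3 lay among the untreated libraries. The log2 difference was 0.82 ± 0.28 (SE; limma, BH adjusted p = 0.0362). Without KO untreated library 3 it was 0.55 (limma, BH adjusted p = 0.165), and without KO IL4 library 1, 2 or 4 it was 0.70 to 0.78 (limma, BH adjusted p of 0.0888 to 0.119). The call was also lost without the filter on low values and with only the groups compared (limma, BH adjusted p of 0.0865 and 0.159). Without the 3 libraries of lowest summed FPKM the difference was 0.50 (limma, BH adjusted p = 0.34). In control cells the difference was 0.40 ± 0.28 (limma, BH adjusted p = 0.35), and the responses differed by 0.42 with a 95% interval of -0.38 to 1.23 (limma, BH adjusted p = 1).

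The other abundant cathepsins did not pass in any comparison. Ctss, the main protease that trims the invariant chain in macrophages and dendritic cells, had 5689 ± 368 rescaled FPKM in untreated control and 5196 ± 915 in untreated KO cells (SD, n = 4), where KO library 3 was low at 3831. Its group means ran from 4277 ± 430 in control rosiglitazone to 5990 ± 594 in KO IL4 cells (SD, n = 4). Ctsb, which acts as endopeptidase and exopeptidase, had 1668 ± 69.9 rescaled FPKM in control and 1944 ± 161 in KO cells with IL4 (SD, n = 4), a log2 difference of 0.22 ± 0.09 (limma, BH adjusted p = 0.138). Ctsz, a carboxypeptidase, had group means from 951 to 1299 rescaled FPKM, and Ctsa, a serine carboxypeptidase that also protects other lysosomal enzymes, from 296 to 353. In GENCODE, exons of Ctsa overlap those of Pltp on the opposite strand, and Pltp had a median of 52.1 FPKM; the sources used here do not say whether counting used strand, so reads of such pairs may be shared. Ctsb overlaps Fdft1 and Ctsz overlaps Nelfcd in the same way, with medians of 6.75 and 4.11 FPKM for the partner genes.

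Ctsk, the collagen-degrading cathepsin of osteoclasts, was picked for description after its values were seen, because it varied widely between libraries with the same label. In untreated cells it had 593, 543, 419 and 493 rescaled FPKM in control libraries 1 to 4 and 497, 516, 160 and 724 in KO libraries. With IL4 it had 399, 337, 295 and 358 in control and 367, 374, 129 and 579 in KO libraries. KO library 3 was the lowest and KO library 4 the highest in each KO group of 4 libraries, and with rosiglitazone, where there are 3 KO libraries, library 2 had 159 and library 3 had 706. Ctsk, Ctsl, Ctsz and Atp6v1h were also lowest in library 3 of all 4 control groups. Over the 29 members, KO library 3 was the lowest of its group for 26 members untreated, 21 with DMSO and 21 with IL4, and library 2 for 21 with rosiglitazone.

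Of the 29 members tested, 0 rose and 2 fell in untreated KO against control cells, or 6.9% of members, where 4.15% of all 10327 genes passed (1.41% higher and 2.74% lower). The DMSO comparison had 1 member that fell and 0 that rose, or 3.45%, against 3.52% of all genes (1.22% higher and 2.3% lower). For rosiglitazone 3 members fell and 0 rose, or 10.3%, against 11.8% of all genes (4.67% higher and 7.17% lower). For IL4 4 members fell and 1 rose, or 17.2%, against 10.8% of all genes (4.54% higher and 6.26% lower). The members' shares were near the background with DMSO and rosiglitazone, and the higher shares untreated and with IL4 rest on 2 and 5 genes. The median log2 difference of the members was -0.12, -0.02, 0.00 and 0.02 in these 4 conditions, and that of all genes -0.02, -0.01, -0.02 and -0.01. Atp6v0a1 was the 1 member that fell in all 4. On the values as deposited, without rescaling, it was also the 1 member called in each of them. Without the 4 KO libraries with low Ctsk, an alternative chosen after seeing the data, the members called numbered 1, 1, 4 and 7. The share of all genes called in that setting is not given here. The summed mesothelial and fibroblast markers had higher medians in KO libraries, 60.9 against 9.10 rescaled FPKM untreated and 62.2 against 23.6 with IL4. The sums of the genotypes overlapped in both conditions. Of the 9 markers tested, 0 were called between genotypes untreated, with DMSO or with rosiglitazone, and 1 was called higher with IL4. The summed neutrophil markers had lower medians in KO libraries, 11.4 against 19.3 untreated and 7.19 against 17.0 with IL4. This second sum was nearly all 1 gene, S100a8. The part of either list in the differences of the members was not tested.

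With rosiglitazone against DMSO, 1 member rose and 0 fell in control cells, where 4.3% of all genes passed (3.09% higher and 1.21% lower). In KO cells 0 members passed in limma (BH adjusted), as did 0 of all genes, and 0 members and 1.4% of all genes were under an unadjusted p of 0.05. With IL4 against untreated cells, 3 members rose and 1 fell in control cells, where 22.5% of all genes passed (12% higher and 10.5% lower). In KO cells 3 rose and 1 fell, where 19.4% of all genes passed (10.4% higher and 8.98% lower). In this fit these shares of members, 13.8% in each genotype, were below the background. With the replicate number as a random block more members were called in both genotypes. With only the groups compared, more were called in control and fewer in KO cells. The shares of all genes in those settings are not given here. Without rescaling, Atp6v0a1 was the 1 member called in control cells, and Atp6v0a1 and Ctsl were the members called in KO cells. The members' median log2 difference with IL4 was -0.09 in control and 0.08 in KO cells, against 0.00 and 0.01 over all genes. With DMSO against untreated cells 0 members passed in either genotype in limma (BH adjusted), as did 0 of all genes. In each genotype 1 member was under an unadjusted p of 0.05, Atp6v0c, whose level is uncertain.

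**Figure D5:**
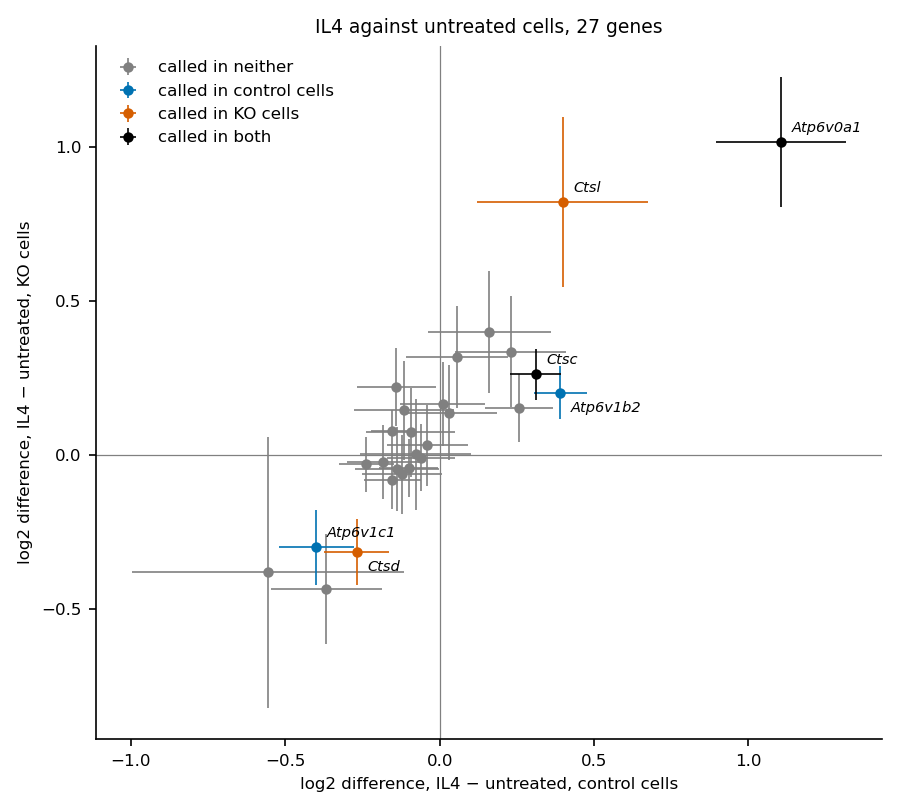
Log2 difference between IL4 and untreated cells in control (x axis) and KO cells (y axis) with SE bars, for the 27 tested genes other than the Atp6v0c pair; colours mark in which genotype the adjusted p is under 0.05. Atp6v0a1 lies near 1 on both axes, and Ctsc is the other gene called in both.

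No member differed between the genotypes in its response to rosiglitazone or to IL4, by limma with BH adjustment, where 0.794% of all genes passed for rosiglitazone (0.107% higher and 0.688% lower) and 0.697% for IL4 (0.252% higher and 0.445% lower). Under an unadjusted p of 0.05 there were 0 members for rosiglitazone and 1 for IL4. That member was Atp6v1a, with a difference between the responses of 0.23 and a 95% interval of 0.03 to 0.43 on the log2 scale (limma, BH adjusted p = 0.782). Atp6v1a was also the highest in KO IL4 and the lowest in control rosiglitazone cells, at 312 ± 21.6 and 255 ± 11.2 rescaled FPKM (SD, n = 4).

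Genes that work with these proteins moved in both directions. Their counts are to be read against the shares of all genes called in the same comparisons, given above: 4.15% untreated, 3.52% with DMSO, 11.8% with rosiglitazone and 10.8% with IL4 between KO and control cells, and 22.5% and 19.4% with IL4 in control and KO cells. Of 38 other lysosomal hydrolases 4 fell and 0 rose in untreated KO cells, with a median log2 difference of -0.03. The DMSO comparison had 3 lower and 0 higher (median 0.02), that with rosiglitazone 6 lower and 1 higher (median 0.00), and that with IL4 4 lower and 2 higher (median 0.06). Pla2g15, a lysosomal phospholipase, fell in KO cells in all 4 conditions, with log2 differences from -0.48 with DMSO to -1.19 with rosiglitazone (limma, BH adjusted p of 0.00796 and 1.17e-08). Ppt2, a thioesterase, and Galns, a sulfatase, also fell in all 4, with log2 differences with IL4 of -0.96 ± 0.08 and -0.33 ± 0.07 (SE; limma, BH adjusted p of 1.6e-09 and 0.00271). With IL4 against untreated cells 9 hydrolases fell and 2 rose in control cells, and 6 fell and 3 rose in KO cells.

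Of 26 lysosomal membrane and transport genes, 2 fell and 1 rose in untreated KO cells, 2 fell and 1 rose with DMSO, 5 fell and 1 rose with rosiglitazone, and 4 fell and 1 rose with IL4. With rosiglitazone against DMSO 3 rose and 1 fell in control cells, where 4.3% of all genes were called (3.09% higher and 1.21% lower). With IL4 against untreated cells 3 rose and 5 fell in control and 2 rose and 7 fell in KO cells. Scarb2, the receptor that carries β-glucocerebrosidase to the lysosome, had 60.6, 61.1, 61.0 and 60.6 rescaled FPKM in control DMSO libraries 1 to 4 and 102, 99.2, 98.9 and 99.9 in control rosiglitazone libraries. In KO cells it had 45.9, 50.4, 45.0 and 49.1 with DMSO and 47.5, 45.1 and 51.5 with rosiglitazone. The control libraries with rosiglitazone lay above all others, and the KO groups overlapped. Its response differed between genotypes by -0.70 ± 0.09 on the log2 scale (SE; limma, BH adjusted p = 1.66e-05). Mcoln2, an endolysosomal cation channel, was the 1 gene of this list that rose in KO cells in all 4 conditions, by 0.38 untreated to 0.86 with rosiglitazone (limma, BH adjusted p of 0.0228 and 7.42e-07).

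Of 11 lysosomal sorting genes 1 fell and 0 rose in KO cells untreated and with DMSO, 2 fell and 0 rose under rosiglitazone, and under IL4 1 fell and 1 rose. Sort1, the sorting receptor sortilin, fell in KO cells in all 4 conditions, with log2 differences from -2.13 untreated to -3.33 with rosiglitazone (limma, BH adjusted p of 2.04e-10 and 1.53e-14). Of 11 pump assembly and regulation genes, 0 passed between genotypes untreated, with DMSO or with IL4, and 2 rose with rosiglitazone, among them the assembly factor Vma21 (0.45 ± 0.11; limma, BH adjusted p = 0.00808). Of 13 genes of mTORC1 at the lysosome 1 rose in KO cells with IL4, and 0 passed in the other 3 conditions. Of 7 cathepsin inhibitors and processing enzymes 1 fell in untreated KO cells, 0 passed with DMSO, 2 were lower under rosiglitazone, and under IL4 1 was higher and 1 lower. With IL4 against untreated cells 1 rose and 1 fell in control and 2 rose and 2 fell in KO cells. Serpinb6b, a serpin, fell in KO cells with IL4, by a log2 difference of -1.12 ± 0.20 (limma, BH adjusted p = 0.000248), and Serpinb6a, another, with IL4 in control and KO cells, with differences of -0.51 and -0.42 (limma, BH adjusted p of 0.00131 and 0.00804). Lgmn, the asparaginyl endopeptidase that processes cathepsin precursors, rose with IL4 by 0.29 ± 0.09 in control and 0.48 ± 0.09 in KO cells (limma, BH adjusted p of 0.0218 and 0.000313). Cst7, the inhibitor of Ctsc known as cystatin F, did not reach the filter.

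Of 5 transcription factors of lysosomal genes, 0 passed between genotypes in any condition. With IL4, Tfec rose by 0.59 ± 0.14 in control and 0.55 ± 0.14 in KO cells (SE; limma, BH adjusted p of 0.00214 and 0.00438), and Mitf rose in KO cells by 0.40 ± 0.13 (limma, BH adjusted p = 0.0277). Tfeb had log2 differences of 0.24 ± 0.10 in control and 0.07 ± 0.10 in KO cells (limma, BH adjusted p of 0.0957 and 0.73). Markers of osteoclast-like fused macrophages moved with IL4 in the same libraries: 3 of 6 passed the filter (Acp5, Dcstamp and Ocstamp) and rose in both genotypes, and their list's sum went from 42.6 to 55.7 rescaled FPKM in untreated to 159 to 203 in IL4 control libraries. In KO cells it went from 25.7 to 77.8 untreated to 111 to 261 with IL4. Of the defining osteoclast genes Calcr was at 0 in 30 of 31 libraries. The part of these cells in the differences with IL4 was not tested.

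The RefSeq promoter table (GRCm38.p6; 250 bases before to 50 after each start) held windows for 20 of the 29 members, and these were searched on both strands. CACGTG, the E-box core bound by the MiT/TFE factors, was in 8 of the 20 (40.0%), against 8.09% of all 27025 genes with a window, and the longer TCACGTGA, which contains it, was in 5 of the 20 (25.0%), against 1.12%. The 5 were Ctsd, Ctsa, Atp6v1a, Atp6v0d1 and Atp6v0e, and the motifs were chosen with earlier results known. A palindrome with a further base at each end of TCACGTGA was also searched. This longest form was in 0 of the 20 windows, against 0.37% of all genes. Each stretch is 30 bases, with TCACGTGA in capitals, and shows the bases around the motif. These 5 genes were picked because their windows hold it, so sharing it is no result about them.
Ctsd, chr7:142387908-142387937, minus strand: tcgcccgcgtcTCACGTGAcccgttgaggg
Ctsa, chr2:164833749-164833778, plus strand: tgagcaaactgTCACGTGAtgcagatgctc
Atp6v1a, chr16:44139373-44139402, minus strand: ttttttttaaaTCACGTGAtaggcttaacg
Atp6v0d1, chr8:105566050-105566079, minus strand: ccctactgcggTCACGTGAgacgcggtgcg
Atp6v0e, chr17:26676387-26676416, plus strand: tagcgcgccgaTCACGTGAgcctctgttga
In Ctsd the motif lies 99 to 92 bases before the start site, and in Atp6v1a 132 to 125 bases before it. In Ctsa it lies 13 to 6 bases before it, with a further copy from 5 to 12 bases after it. Of the 5 genes, Ctsd and Atp6v1a passed in some comparison, in opposite directions between KO and control cells with IL4, and Ctsa, Atp6v0d1 and Atp6v0e passed in none. Atp6v0a1 had none of the motifs searched in its window; GENCODE starts this gene 946 bases upstream of the RefSeq start. The DR1 consensus, the direct repeat of PPAR and RXR, was in 0 of the 20 windows and 0.0481% of all genes, and the STAT6-type palindrome, TTC and GAA with 4 bases between, in 0 of the 20 and 8.01% of all genes. A match is a description of these letters, and no match says only that they are not in this window.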

How the data were processed

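The table analysed holds FPKM values of 31 libraries, deposited by the authors; read counts were not used here. Per the submitters' processing notes, TopHat2, featureCounts, edgeR and the build mm9 were used, without versions; which tool made the FPKM, and whether strand was used in counting, is not stated there. Per the labels' protocols, libraries were made from total RNA with a stranded Illumina TruSeq kit. Of 24302 rows, 25 had symbols turned into dates and were left out (0.136% of the FPKM).

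Libraries were rescaled by the median ratio over the 12109 genes above 0 in all libraries (size factors 0.577 to 1.21). Genes that reached 1 FPKM in 3 or more libraries were fitted as log2(rescaled FPKM + 1) with limma 3.58.1 in R 4.3.3, 1 mean per group, an intensity trend in the prior variance, two-sided tests and BH adjustment over 10327 genes in each of 12 comparisons. The pseudocount understates fold changes of low genes. The script was tested on simulated data. Biopython 1.88 aligned the transcripts. Depth per library is unknown beyond the FPKM sums, so no counting intervals are given.

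The members and gene lists were chosen with earlier results of these data known. Members named by rule were, in each comparison, up to 6 called per direction, and the 3 pump genes and 5 cathepsins with the highest means. Members with a value under 0.25 of their group's median, and isoforms of named pump subunits, were also named by rule. The other members were described outside this rule, Ctsk after its values were seen. Genes outside the set were up to 4 per list with the smallest p, with Pparg, Tcirg1, Lgmn and Cst7. Alternatives were FPKM as deposited, another pseudocount, no filter, only the groups compared, blocks by mouse, isolated zeros set missing, and libraries left out. The replicate numbers did not meet the rule for pairing.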

Additional observations from a re-analysis of the deposited data

Results flagged for a closer look

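For 16 named members, each group of 4 libraries was searched for a library whose gap to its nearest neighbour took an unusually large share of the group's range. Chance flags about 1 in 20 groups, and 7 of 112 groups were flagged. Control IL4 library 2 had 0.0266 rescaled FPKM of Atp6v0c-ps2, against 222 to 262 in the other libraries of its group. KO untreated library 3 was low for Ctsh, at 97.5 against 147 to 155, for Ctss, at 3831 against 5558 to 5790, and for Atp6v1c1, at 146 against 211 to 223. Control DMSO library 3 was low for Ctsl, at 1160 against 1764 to 1862. KO DMSO library 2 was low for Atp6v1a, at 296 against 310 to 311, and control untreated library 4 was low for Ctsc, at 42.0 against 50.5 to 51.7.

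Scarb2, which is no member of the set, was flagged because its response to rosiglitazone differed between the genotypes, by -0.70 ± 0.09 on the log2 scale (SE; limma, BH adjusted p = 1.66e-05).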

How the results depend on the processing

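No called member changed direction under 41 other settings. The counts below are of members called, in the order KO against control untreated, DMSO, rosiglitazone and IL4, rosiglitazone against DMSO in control cells, and IL4 against untreated in control and KO cells (2, 1, 3, 5, 1, 4 and 4 as reported). As deposited, without rescaling, they were 1, 1, 1, 1, 0, 1 and 2; there the median of all genes moved to -0.20 untreated and 0.11 with DMSO and IL4 for KO against control, and to 0.21 for IL4 in KO cells and 0.30 for DMSO in KO cells. With a pseudocount of 0.1 the fifth count was 0. Without the filter on low values they were 1, 1, 1, 4, 0, 4 and 2, and with only the groups compared 1, 1, 1, 4, 1, 9 and 1. Without the 3 libraries of lowest summed FPKM they were 1, 1, 4, 5, 2, 4 and 3, and without the 4 KO libraries with low Ctsk 1, 1, 4, 7, 2, 8 and 4. With 1 library left out in turn they ranged over 1 to 3, 1 to 1, 2 to 4, 2 to 6, 0 to 2, 3 to 6 and 1 to 4. The cause of these changes was not tested. The share of all genes called in each of these settings is not given here, so the counts cannot be read against a background. The other 5 comparisons kept 0 calls in these settings.

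With the replicate number as a random block, as titled, the counts were 2, 1, 3, 5, 2, 6 and 5. Outside KO rosiglitazone 21 of 28 libraries correlated best with their own number in other treatments, but same-number correlations ran from -0.20 to 0.77, so the pairing was not taken as given. The 3 KO rosiglitazone libraries each correlated best with the number 1 higher, and a block with them so matched gave 4, 1, 6, 7, 5, 12 and 10, and 1 call for DMSO against untreated in each genotype. The shares of all genes called with these blocks are not given, so more calls of members may be more calls of all genes. Depth is unknown beyond the FPKM, so precision at low levels cannot be given.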
